A study of Drosophila melanogaster with 3 samples.

Results

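The data describe where CG7839 fused to enhanced GFP, a protein annotated as Noc1, was recovered at the starts of long non-coding RNA genes in chromatin immunoprecipitation sequencing (ChIP-seq) of whole fruit fly embryos. A summit, the position of greatest signal in a called peak, was kept when it lay within 500 bp of a transcript start of a gene whose symbol begins with lncRNA: or asRNA: and over 500 bp from every protein-coding transcript start. Of the 30000 summits in the authors' pooled peak list, 959 lay within 500 bp of such a non-coding start, 247 of these were also within 500 bp of a coding start, and the remaining 712 are described here (2.37% of the list). They comprise 645 summits at lncRNA: genes and 67 at asRNA: genes, the antisense class. The nearest start of any gene was the non-coding one for 710 of the 712.

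All samples belong to 1 group of 3 replicates: transgenic embryos of mixed sex, 0 to 24 h old, stably carrying CG7839 with GFP at its C-terminus, whose sonicated chromatin was precipitated with an antibody against GFP. The labels name 1 transgenic line and no untagged group, and the promoter that drives the fusion is not given in the sources used here. Whole embryos mix all cell types and stages, so binding in a few cells and weak binding in many cannot be told apart. Each replicate has its own list of 30000 peaks, and 1 control was common to all 3 replicates, so shared features of the lists may come from it, which was not tested. The signal value of a peak ranks it only within its own list, where rank 1 is the strongest. The authors' list thresholded by irreproducible discovery rate (IDR) across replicates, called the IDR list, holds 8188 peaks, the strongest of the pooled list.

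Long non-coding RNAs are transcripts by RNA polymerase II that are usually capped and spliced like messenger RNA but encode no long protein. Some act in the nucleus as scaffolds, some are cut into small RNAs, and for many only the act of transcription, or no role at all, is known. An antisense RNA gene lies opposite a gene on the other strand. Noc1 is a nucleolar complex protein, a family that in yeast helps to assemble the large ribosomal subunit in the nucleolus.

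The sequences under the strongest summits and under those of the best known RNAs show what DNA was recovered. Each window is 101 bp of the RefSeq dm6 genome centred on the summit, written 5′ to 3′ on the strand of the non-coding gene, and capitals mark matches on either strand to a list of 11 short motifs. Those that occur here are the TATA box, a site of GATA factors, the core of the BEAF-32 site (CGATA) and a run of A. The first 6 are the strongest members on the arms whose sequence is shown.
lncRNA:CR31044: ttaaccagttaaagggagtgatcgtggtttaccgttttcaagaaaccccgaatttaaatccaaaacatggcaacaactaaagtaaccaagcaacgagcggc
lncRNA:CR46036: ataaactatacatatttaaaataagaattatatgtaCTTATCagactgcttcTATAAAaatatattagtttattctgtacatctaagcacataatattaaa
asRNA:CR44429: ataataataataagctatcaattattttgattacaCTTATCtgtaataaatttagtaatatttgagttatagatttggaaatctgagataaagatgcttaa
lncRNA:CR45352: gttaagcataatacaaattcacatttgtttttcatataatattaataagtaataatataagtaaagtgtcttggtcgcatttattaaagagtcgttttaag
lncRNA:CR42657: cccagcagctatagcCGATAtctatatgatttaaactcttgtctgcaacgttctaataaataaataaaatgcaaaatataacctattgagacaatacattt
lncRNA:CR44676: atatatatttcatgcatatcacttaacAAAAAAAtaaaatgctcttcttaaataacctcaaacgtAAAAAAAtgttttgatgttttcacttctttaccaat
They lie at chr3R:29214399-29214499 (plus strand), chr3R:17700532-17700632 (plus) and chrX:15298411-15298511 (minus). The next are at chr2L:14022266-14022366 (minus), chrX:9687694-9687794 (plus) and chr3L:19560784-19560884 (minus). Their GC content was 41.6% at lncRNA:CR31044 and between 18.8% and 29.7% in the other 5. The window of lncRNA:CR46036 held a TATA box and a reverse GATA site, that of asRNA:CR44429 a reverse GATA site and that of lncRNA:CR42657 the CGATA core, while those of lncRNA:CR31044 and lncRNA:CR45352 held no match, so no listed motif was common to the 6.

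The next 5 are the summits of RNAs with a known role, picked by name, at pooled ranks from 709 to 11789. Named RNAs with weaker summits are not shown.
lncRNA:Hsromega: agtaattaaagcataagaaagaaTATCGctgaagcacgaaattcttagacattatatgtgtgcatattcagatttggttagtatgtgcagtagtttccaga
lncRNA:flam: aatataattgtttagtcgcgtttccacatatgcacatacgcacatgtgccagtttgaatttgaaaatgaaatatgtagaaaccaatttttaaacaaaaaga
lncRNA:yar: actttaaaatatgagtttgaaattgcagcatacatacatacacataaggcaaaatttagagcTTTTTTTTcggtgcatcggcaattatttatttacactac
lncRNA:roX1: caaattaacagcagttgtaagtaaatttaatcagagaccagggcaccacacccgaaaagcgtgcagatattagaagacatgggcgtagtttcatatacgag
lncRNA:roX2: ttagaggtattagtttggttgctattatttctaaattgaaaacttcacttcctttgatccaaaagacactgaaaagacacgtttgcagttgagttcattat
They lie at chr3R:21296283-21296383 (plus strand), chrX:21631705-21631805 (plus), chrX:362184-362284 (plus), chrX:3862492-3862592 (minus) and chrX:11579150-11579250 (plus). The Hsromega window held a reverse CGATA core and the yar window a reverse run of A, and the windows of flam, roX1 and roX2 held no match.

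The strongest summit at a non-coding start ranked 36 in the pooled list and 40, 36 and 36 in replicates 1, 2 and 3. It lay 147 bp upstream of lncRNA:CR44339 (peak chr2R:12984955-12985461, summit 12985220), outside any coding gene. The nearest coding start, 4226 bp away, is that of Psc, a Polycomb group gene. lncRNA:CR31044 followed at pooled rank 43 and at ranks 55, 39 and 39 in the replicates, with its summit 113 bp upstream (peak chr3R:29214170-29214693). This RNA contains the pre-miRNA genes mir-279 and mir-996, 1136 and 2735 bp downstream of the summit, and the nearest coding start, that of the translation factor subunit gene eEF1gamma, was 5723 bp away. Both starts therefore stood far from coding starts and among the strongest peaks of every replicate.

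lncRNA:CR46036 had pooled rank 70 and ranks 78, 55 and 83, with the summit 159 bp upstream of its start (peak chr3R:17700300-17700857). It lies in an intron of osa, a subunit gene of the Brahma chromatin remodelling complex, on the opposite strand. asRNA:CR44429, the strongest of the antisense class, had pooled rank 105 and ranks 94, 110 and 114 (peak chrX:15298230-15298757). Its summit was 244 bp upstream of its start within an intron of gce, which encodes a juvenile hormone receptor, and 548 bp from a gce start, close to the 500-bp limit. lncRNA:CR45352 had pooled rank 184 and ranks 182, 182 and 199, 283 bp upstream of its start and 2108 bp from NimC3, a Nimrod family phagocytosis gene. lncRNA:CR42657 had pooled rank 238 and ranks 300, 187 and 244, 445 bp upstream and 678 bp from nej, which encodes the CBP acetyltransferase. In all 4 every replicate rank was at or under 300.

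Across the 25 strongest members, pooled ranks ran from 36 to 707 and replicate ranks from 36 to 928. All 25 had a matching summit, one within 100 bp, among the strongest 8188 peaks of each replicate, and for no member was the highest replicate rank more than 1.604 times the lowest. The pooled list was called from these same replicates, so choosing by pooled rank in part sets such agreement. It was not computed for other peaks of like rank, so it is not shown to be particular to members. Of these 25 summits 17 lay upstream of the start, 16 lay outside coding genes and 9 lay in introns of coding genes. The introns held lncRNA:CR45997 in mbl, the muscleblind splicing factor gene (pooled rank 271, same strand), and lncRNA:CR44867 and lncRNA:CR44868 in beat-Ib, a beaten path family gene (274 and 315, opposite strand). They also held lncRNA:CR46102 in the lipophorin receptor gene LpR2 (418), lncRNA:CR44409 in the NF-kappaB gene Dif (490), asRNA:CR45908 in CG1943 (613) and lncRNA:CR46265 in the choline acetyltransferase gene ChAT (706, same strand). Of the 9 intronic summits, then, 7 were at starts on the strand opposite to the host gene.

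The others of the 25 stood outside coding genes. lncRNA:CR44676 (pooled rank 260) lay 356 bp downstream of its start and 4297 bp from the pre-miRNA gene mir-9a. lncRNA:CR44810 (287) was 4531 bp from slbo, the C/EBP gene of border cell migration, lncRNA:CR45668 (320) was 664 bp from the cytoplasmic actin gene Act5C, and lncRNA:CR45541 (327) was 1752 bp from the hexokinase gene Hex-A. lncRNA:CR45251 (289), lncRNA:CR43626 (301), lncRNA:CR45595 (359), lncRNA:CR31840 (382), lncRNA:CR44917 (403), asRNA:CR45999 (512), lncRNA:CR44276 (537) and lncRNA:CR42794 (707) complete the set. Distance to the nearest coding start ranged widely among them, up to 30817 bp at lncRNA:CR44917.

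**Figure D1:**
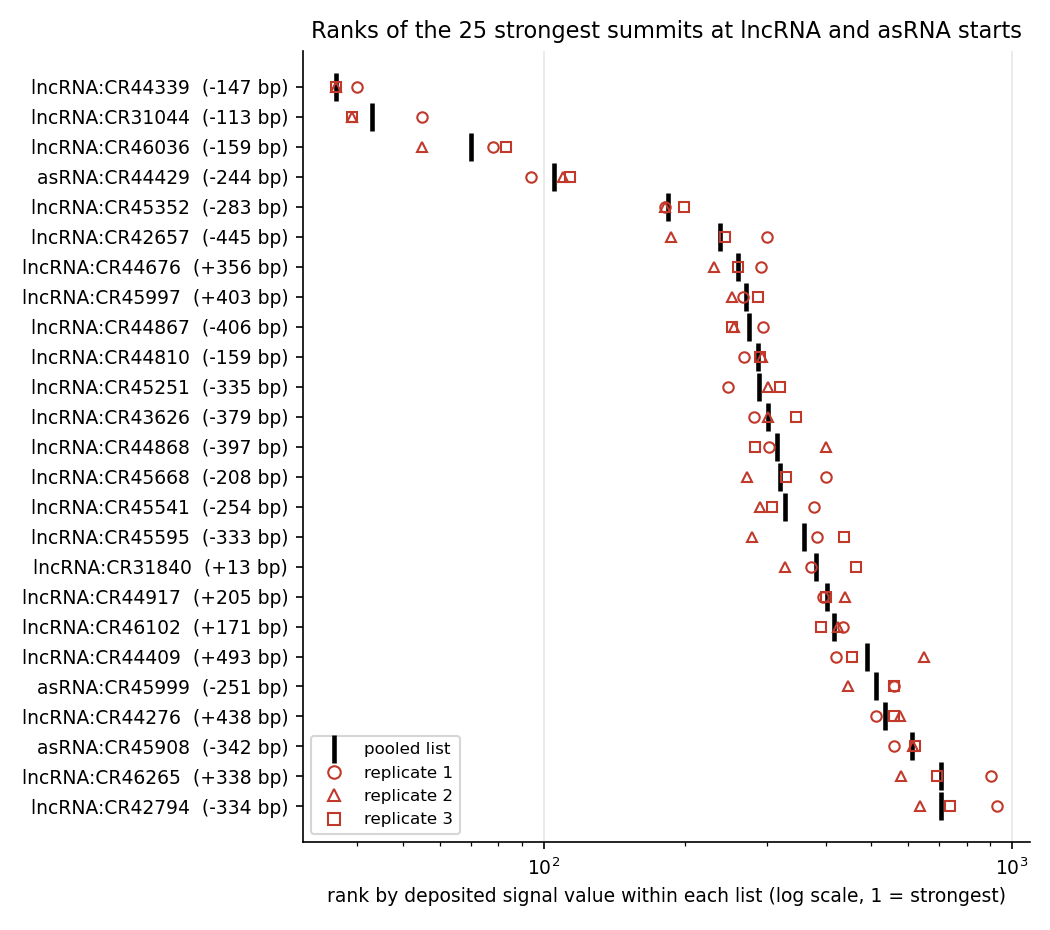
Ranks of the 25 strongest summits at lncRNA and asRNA starts, by deposited signal value within each list on a log axis where 1 is the strongest. Black bars are the pooled list, red symbols the 3 replicates, and brackets give the position from the start (negative upstream); every replicate rank lies between 36 and 928.

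The whole set was of middling strength. Of the 712 members, 183 were in the IDR list (25.7%, 95% Wilson interval 22.6 to 29.0), against 27.3% of all pooled summits, and the median member stood at the 48.7th percentile of signal value. In all 3 replicate lists 275 members had a matching summit (38.6%, interval 35.1 to 42.3), against 37.8% of all pooled summits. Among the strongest peaks of all 3 replicates 128 had a match (18.0%, interval 15.3 to 21.0), against 18.4% of all pooled summits. All 3 shares were close to the background of the list, and none sets the members apart from it. Matches were found in exactly 2 replicates for 203 members, in 1 for 170 and in none for 64. The intervals cover counting error only, since neighbouring summits are not independent.

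Within the IDR list 174 of the 183 members were matched in all 3 replicates (95.1%, interval 90.9 to 97.4) and 7 in 2, against 86.4% of coding-start summits in all 3. The remaining 2 were matched in 1 replicate each: lncRNA:CR42651, the RNA with mir-10 (pooled rank 6236, replicate 2 only), and lncRNA:CR43984 (7591, replicate 1 only). The IDR list holds the strongest peaks of the pooled list, which was called from these same replicates. This in part sets high shares within it. The share over all IDR summits was not computed, so that of members is not shown to be unusual. Outside the IDR list 101 of 529 members were matched in all 3 replicates (19.1%), against 20.3% of coding-start summits. At the edge of the list, the last members inside were lncRNA:CR44699 and lncRNA:CR45511 (pooled ranks 8167 and 8177), and the first outside were lncRNA:CR45984 and lncRNA:CR43130 (8197 and 8204). lncRNA:CR43130 had replicate ranks 8667, 9132 and 8988, so the limit parts summits of like strength.

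Set against other summits, members ranked below those at coding starts, above those far from any start, and near those at middle distances. Of the 7343 summits between 500 and 2000 bp from every start 26.8% were in the IDR list and 37.2% were matched in all 3 replicates, at a median percentile of 49.7, all within 2 points of the members' values. Among the strongest peaks of replicates 1, 2 and 3, matches were found for 24.7%, 24.4% and 22.9% of members, against 37.6%, 40.3% and 38.9% of the 6649 pooled summits within 500 bp of a coding start. The difference was -14.9 ± 1.73 percentage points (SD, n = 3), with the same sign in 3 of 3 replicates (exact sign-flip permutation test, two-sided, p = 0.25, adjusted p = 0.31 over 5 comparisons). Of the 15051 summits over 2000 bp from every start, 20.0%, 18.8% and 17.7% were matched there, so members exceeded them by 5.17 ± 0.46 points in 3 of 3 replicates (exact p = 0.25, adjusted p = 0.31). The smallest p that 3 replicates allow in this permutation test is 0.25, so no difference could pass the threshold of 0.05. Members and both other sets did not overlap in these values. In single replicates the share over all pooled summits was not computed, so the gaps are not shown to be particular to members.

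Matches anywhere in a replicate's list gave a less even picture, again with no share over all pooled summits computed for single replicates. They were found for 69.1%, 67.4% and 60.3% of members, against 68.4%, 77.9% and 72.6% of coding-start summits. The difference of -7.37 ± 7.06 points (SD, n = 3) was negative in replicates 2 and 3 only (exact permutation p = 0.5, adjusted p = 0.5). Matching within 50 bp or 250 bp in place of 100 bp gave -6.32 and -7.16 points, negative in 3 of 3 replicates (exact permutation p = 0.25 each), so the sign in replicate 1 turned with the match distance. With matches within 100 bp the difference was -11.4 without replicate 1, -5.82 without replicate 2 and -4.87 without replicate 3. Summits over 2000 bp from starts were matched at 64.6%, 61.4% and 56.4%, which members exceeded by 4.79 ± 1.15 points in 3 of 3 replicates (exact permutation p = 0.25, adjusted p = 0.31).

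**Figure D2:**
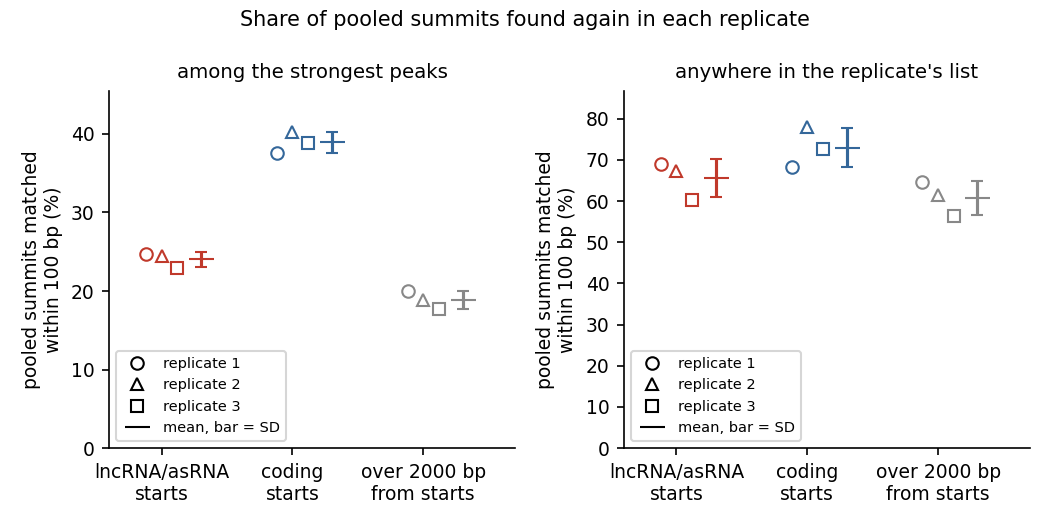
Share of pooled summits with a summit within 100 bp among the strongest 8188 peaks of each replicate (left panel) or anywhere in its list (right panel), in percent, for members, coding-start summits and summits over 2000 bp from every start. Symbols are the 3 replicates and bars the mean ± SD; in the left panel members lie between 22.9% and 24.7%, below every coding-start value and above every distal value.

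Applying the same rule to each replicate's own list gave 724, 673 and 690 members (695.7 ± 26.0, SD, n = 3). Of these 184, 184 and 177 were among that replicate's strongest 8188 peaks. They lay at 613, 550 and 580 genes (581 ± 31.5, SD, n = 3).

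Seen from the genes, a minority had a member. The annotation has 2448 lncRNA and asRNA genes on the arms, of which 2023 have a start over 500 bp from every coding start. A member lay at 551 of these 2023 (27.2%, interval 25.3 to 29.2), and an IDR member at 174 (8.6%, interval 7.46 to 9.9). The share was 29.9% of 1695 lncRNA: genes (interval 27.7 to 32.1) and 13.7% of 328 asRNA: genes (interval 10.4 to 17.9). A further 28 genes had a member although each of their starts is within 500 bp of a coding start, which brings the total to 579. Most of them, 436, had 1 member, 130 had 2, 12 had 3 and 1 had 5.

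The gene with 5 members was lncRNA:CR43423 on arm 3L (chr3L:637486-638568, minus strand), and all 5 were weak, with the best at pooled rank 20655 and none in the IDR list. It lies inside the interval of lncRNA:CR43334 (chr3L:628435-643900, plus strand), the precursor that holds bantam, a growth-promoting microRNA, which itself had 3 members with the best at 6173. Neighbouring summits this close overlap in their peaks, since 547 of the 712 members had an interval of 416 bp with the summit exactly in its middle. Of all members 238 (33.4%) had another pooled summit within 500 bp, against 30.9% of the pooled summits that are not members. That width was held by 76.8% of members, against 77.6% of the pooled summits that are not members. In the IDR list it was held by 31 of 183 members (16.9%), against 23.4% of the IDR summits that are not members. Other genes with 3 members were led by lncRNA:CR43626 (pooled ranks 301, 3830 and 14420), which holds mir-282, and lncRNA:CR46243 (best rank 2135), 9311 bp from Myc, the growth regulator gene.

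Relative to the nearest non-coding start, members had a slight lean upstream that turned with the window. Of the 712 summits 389 were upstream (54.6%, interval 51.0 to 58.3), but with a window of 250 bp in place of 500 bp 59.8% were and with 1000 bp 49.5%. Of the 389, 15 lay inside the gene, upstream of an internal start. The median position was -47 bp, and 17.7% lay in the 150 bp upstream of the start. Of coding-start summits 67.2% were upstream, with a median of -88 bp, and 30.9% lay in those 150 bp. In 50-bp bins members ranged from 2.95% to 6.88% of the set per bin, with no single crest, while coding-start summits reached 10.5%. In the replicates' own lists 51.8%, 56.9% and 54.8% of members were upstream, against 69.6%, 64.3% and 66.7% of coding-start summits. The difference was -12.3 ± 5.22 points (SD, n = 3) in 3 of 3 replicates (exact permutation p = 0.25, adjusted p = 0.31).

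The lean was larger by share among the stronger members, and the positions of weaker ones are less sure. Of the 529 members outside the IDR list 516 (97.5%) had the fixed interval with its summit in the middle, and the part of this in positions and in matches within 100 bp was not tested. Of the 183 IDR members 114 were upstream (62.3%, interval 55.1 to 69.0), with a median of -101 bp, against 52.0% of the 529 members outside the list. In the 3 replicates the share among the strongest members was 59.98 ± 1.89% (SD, n = 3), against 80.6 ± 3.69% of the strongest coding-start summits. By position, IDR members made up 31.1% of the 219 members less than 250 bp upstream, 18.2% of the 148 less than 250 bp downstream, 27.1% of the 170 farther upstream and 24.0% of the 175 farther downstream. The lowest IDR share thus stood just inside the transcribed stretch (interval 12.9 to 25.2). That interval lay below the one for members less than 250 bp upstream (25.3 to 37.5). It overlapped those of the farther upstream and farther downstream members (20.9 to 34.2 and 18.3 to 30.8). The 50-bp bin with the fewest IDR members, beginning at 100 bp, held 1 of the 183, and 23 of all members (3.23%).

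**Figure D3:**
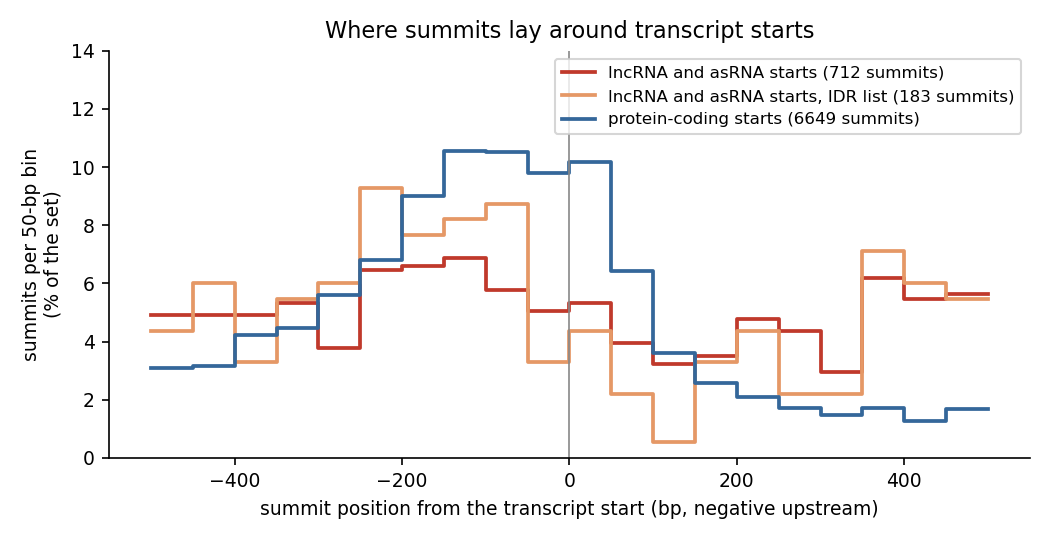
Position of summits around transcript starts in 50-bp bins, as percent of each set per bin, for members, IDR members and coding-start summits. Members stay between 2.95% and 6.88% per bin, whereas coding-start summits crest at 10.5% upstream of the start and fall off downstream.

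The surroundings of the members differed from those of other summits away from coding starts. Of the 712 summits 502 lay outside coding genes (70.5%), 184 in introns (25.8%) and 26 in exons (3.65%). Of the 22639 other pooled summits over 500 bp from coding starts, 34.4% lay outside coding genes, 60.8% in introns and 4.73% in exons. The non-coding start itself lay outside coding genes for 508 members (71.3%), so the rule in part sets this contrast. Strength varied little by surroundings: 25.3% of members outside coding genes were in the IDR list, 27.7% of those in introns and 5 of 26 in exons. When the non-coding start itself lay in a coding gene it was on the opposite strand for 165 members, of which 27.3% were in the IDR list, and on the same strand for 38, of which 28.9% were. By distance to the nearest coding start the IDR share was 30.3% of 89 members up to 1000 bp away, 29.9% of 134 up to 2000 bp, 25.4% of 213 up to 5000 bp and 22.5% of 276 beyond, with overlapping intervals throughout.

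Members nearest to the 500-bp limit were lncRNA:CR45215, 503 bp from a start of the copper transporter gene Ctr1B, lncRNA:CR44763, 504 bp from Ppa, and lncRNA:CR43918, 508 bp from Dp, the E2F partner gene. Their pooled ranks were 19950, 19437 and 5944. The most isolated were at lncRNA:CR46006, 58763 bp from the odorant receptor gene Or67d, lncRNA:CR45155, 55602 bp from dpr6, and lncRNA:CR45576, 55417 bp from Cyp12e1, a cytochrome P450 gene, with pooled ranks 10450, 28595 and 21605. Isolation from coding starts did not go with high rank in these examples. For 484 of the 712 members (68.0%) the nearest coding gene had a pooled summit at a start of its own, against 69.95% of the 22639 other summits away from coding starts and 37.6% of all 13968 coding genes. The share for members lay within 2 points of that for the other summits.

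A smaller share of antisense genes than of lncRNA: genes had a member, while the intervals of the IDR share overlapped between the classes. The rule leaves out summits near coding starts, and its part in the gene shares was not tested. A start away from coding starts was present in 328 of 503 asRNA: genes and 1695 of 1945 lncRNA: genes. Of the 67 antisense members 22 were in the IDR list (32.8%, interval 22.8 to 44.7), against 161 of 645 members at lncRNA: genes (24.96%, interval 21.8 to 28.4). Upstream positions made up 68.7% of antisense members (interval 56.8 to 78.5) with a median of -150 bp, against 53.2% and -36 bp at lncRNA: genes. Positions within 500 bp of a coding start are closed to members, and the part of this in the upstream contrast was not tested. After asRNA:CR44429, asRNA:CR45999 and asRNA:CR45908 came asRNA:CR45281 (pooled rank 841, no match in replicate 1, ranks 893 and 861 in replicates 2 and 3). Next was asRNA:CR43469 (1219, with ranks 1393, 1056 and 1182) near bic, the nascent polypeptide associated complex gene. Several lay in introns of the gene they oppose: asRNA:CR46145 in the tyrosine kinase gene FER (1978), asRNA:CR46484 in Pcif1 (4076), asRNA:CR44124 in Ankle2 (5575), asRNA:CR44984 in the adhesion gene ed (6040) and asRNA:CR43474 in the RGS gene loco (6303). asRNA:CR45714 lay in an exon of the serine protease gene Hayan (6451). The 45 members outside the IDR list were at starts of 39 antisense genes.

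Among genes with a proper name rather than a number, 42 in all, 16 had a member (38.1%) and 5 an IDR member (11.9%). Over all 2448 genes 23.7% had a member, and of those with a start away from coding starts 8.6% had an IDR member. Hsromega, whose RNA gathers RNA-binding proteins into nuclear omega speckles and is induced by heat shock, was the strongest, at pooled rank 709 and ranks 718, 814 and 640. That summit lay 206 bp downstream of a start (summit 21296333 on 3R), and a weak one at rank 26097 lay 75 bp upstream of a start. flam, the flamenco piRNA cluster transcript that silences transposons in the somatic cells of the ovary, had a summit 136 bp upstream at pooled rank 2485, with ranks 2553, 2328 and 3527. It was 1607 bp from a start of DIP1. Both were in the IDR list and matched in all 3 replicates.

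The other 3 with an IDR member were TS16, TS2 and marge, at pooled ranks 3358, 3746 and 4373. TS16 had ranks 3811, 2731 and 4213, TS2 3801, 3362 and 6328, and marge 3400, 4291 and 9267. The TS genes are named for RNAs specific to the testis. Of the 15 TS genes in the annotation 5 had a member (33.3%, interval 15.2 to 58.3), the other 3 being TS27 at 9298, TS1 at 14417 and TS4 at 22199.

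yar, a long non-coding RNA between yellow and the achaete-scute genes, fell just outside the IDR list at pooled rank 8325, with ranks 9235, 7869 and 10812 and a summit 165 bp upstream. roX1 and roX2, the RNAs of the dosage compensation complex that coats the male X, stood in the middle of the pooled list. roX2 had pooled rank 10224 and ranks 16093, 9290 and 18788, 135 bp downstream of its start. roX1 had pooled rank 11789 and a match in replicate 3 alone, at rank 10660. Its summit lay 117 bp upstream of an internal start and inside the gene. Neither was in the IDR list, and the highest rank of roX2 in a replicate was about 2 times its lowest.

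Further named RNAs had members outside the IDR list. asRNA:Eig63F-2 ranked 11327 with no match in replicate 3. iab8, a Hox cluster transcript that is cut into mir-iab-8, ranked 14095 and 25217, Vinr, a regulator of immune gene expression, 20777, acal, an RNA that acts in dorsal closure, 26139, and SMRG 26559, with no match in any replicate. In 26 named genes no summit met the rule. For bxd and iab4 of the bithorax complex the nearest pooled summit was 608 and 818 bp from a start. For let7C, the let-7 precursor, it was 12368 bp away and for cherub, an RNA of dividing neuroblasts, 12845 bp. At enrr the summit 266 bp from its start ranked 73, but the same 266 bp separates it from a start of elav, a neuronal RNA-binding protein gene, and at Irar a summit 50 bp away was 179 bp from a start of InR, the insulin receptor gene. Every start was within 500 bp of a coding start in 3 of the 26.

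**Figure D4:**
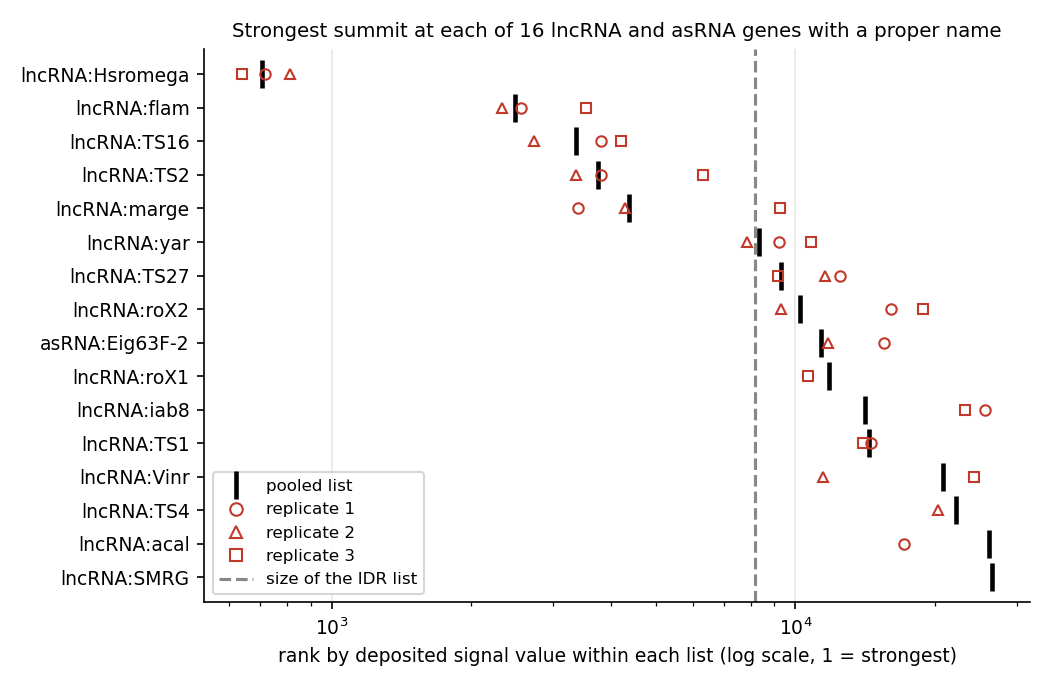
Rank of the strongest member at each of 16 lncRNA and asRNA genes with a proper name, by deposited signal value within each list on a log axis where 1 is the strongest. Black bars are the pooled list, red symbols the replicates in which a summit lay within 100 bp, and the dashed line the size of the IDR list, 8188; Hsromega, flam, TS16, TS2 and marge lie to its left in the pooled list.

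Precursors of microRNAs, transcripts cut in the nucleus into hairpins, had a member at a larger share of genes than other non-coding genes. A pre-miRNA gene lay inside, on the same strand, for 35 of the 2023 genes with a start away from coding starts, and 22 of these had a member (62.9%, interval 46.3 to 76.8), against 529 of the 1988 others (26.6%, interval 24.7 to 28.6). Genes with several starts also had a member more often, 44 of 111 (39.6%) against 507 of 1912 with 1 start (26.5%), and the part of this in the first contrast was not tested. In all 39 members lay at 23 such precursors, of which 10 were in the IDR list (25.6%), a share near the background. Besides lncRNA:CR31044 and lncRNA:CR43626 these included asRNA:CR46194 with mir-281-1 and mir-281-2 (pooled rank 1912), lncRNA:CR43650 with mir-8 (2531), lncRNA:CR43651 with mir-14 (3605) and lncRNA:CR43836 with mir-31b (7081). The precursors of mir-1 (17022) and mir-124 (24921), made in muscle and in neurons, had members outside the IDR list.

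Along the arms, members were 2.37% of pooled summits, while the stretches in which a member could lie made up 1.49% of the arms without Y, a ratio of 1.59. The ratio was lowest at 1.47 on X and highest at 1.88 on 2R among the arms other than 4, which held 3 members. By number 197 members were on 2L, 113 on 2R, 169 on 3L, 144 on 3R and 86 on X. The X held 12.1% of members but 18.95% of pooled summits, and in the replicates' own lists 11.5 ± 0.499% of members against 18.15 ± 0.625% of summits (SD, n = 3). The stretches open to members covered 1.03% of X, against 2.16% of 2L, and 29.7% of the 239 genes on X with a start away from coding starts had a member, against 27.2% of all such genes. IDR shares were 32.6% on X, 31.0% on 2R, 27.8% on 3R, 21.9% on 3L and 21.8% on 2L. The 3 members on arm 4, lncRNA:CR44440, asRNA:CR44031 and asRNA:CR45124, ranked 11388, 17819 and 21130.

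Base composition moved with strength. In windows of 201 bp around the summit the median GC content was 32.3% for IDR members and 40.3% for the members outside the list. In the replicates' own lists the strongest members had a median of 32.5 ± 0.287% and the weaker ones 40.6 ± 0.574%, a difference of -8.13 ± 0.287 points (SD, n = 3) in 3 of 3 replicates. The same difference was -7.63 ± 0.76 points among coding-start summits and -6.3 ± 0.574 points among distal ones. Low GC in strong peaks was therefore common to all 3 sets, and its part in their rank was not tested. As a whole, members had a median GC of 37.6%, coding-start summits 37.8% and distal summits 37.3%.

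**Figure D5:**
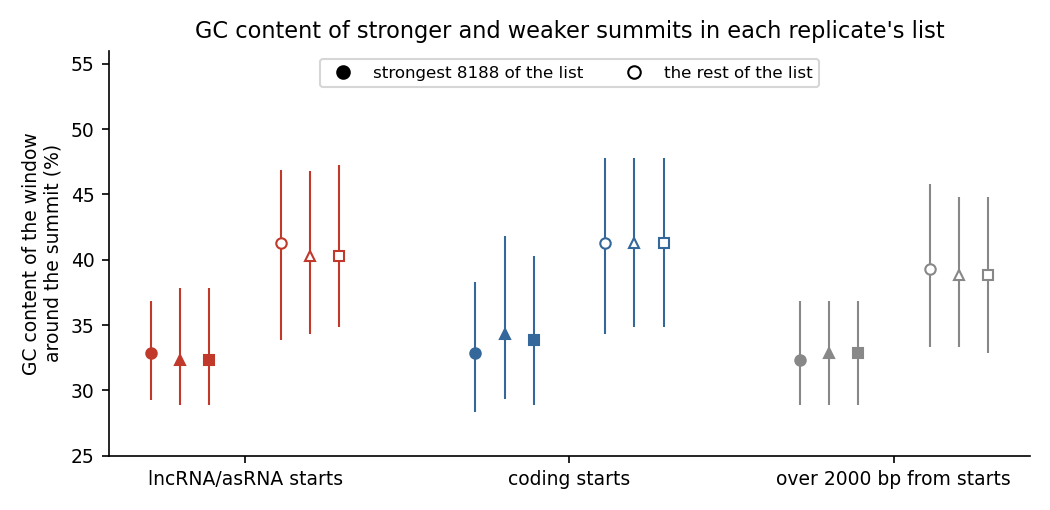
Median GC content, in percent, of 201 bp around the summit for the strongest 8188 peaks of each replicate's list (filled) and the rest of the list (open), for members, coding-start summits and distal summits. Symbols are replicates 1, 2 and 3 in order and bars the quartiles; strongest members have medians of 32.3% to 32.8% and weaker ones 40.3% to 41.3%.

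Motifs of housekeeping promoters were found at a smaller share of these starts than of coding starts. The DRE (TATCGATA, the DREF site) was in 4 of 712 member windows of 201 bp (0.562%, interval 0.219 to 1.44), against 4.41% of coding-start windows and 1.34% of all pooled windows, counted on both strands. None of the 183 IDR members held it, which allows a share of up to 1.64%. The core of Motif 1 (GGTCACACT, bound by M1BP) was in 1 member window (0.14%), against 2.42% of coding-start windows and 0.67% of all. The core promoter motif Ohler 7 was in 7.3% of member windows (interval 5.61 to 9.45), against 12.2% and 7.02%. CGATA, which lies inside the DRE, was in 18.0% (interval 15.3 to 21.0), against 32.1% and 22.8%. Distal summits, over 2000 bp from any start, were as low, with the DRE in 0.458%, the Motif 1 core in 0.173%, Ohler 7 in 5.57% and CGATA in 19.5%, so the low shares were not particular to members. The intervals of the DRE, Motif 1, Ohler 7 and CGATA shares in members all lie below the coding-start shares.

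The other motifs stood near the list's own level. TATAAA was in 32.6% of member windows, against 32.0% of coding-start windows and 32.5% of all, and in 43.7% of IDR members (interval 36.7 to 51.0), against 28.7% of the members outside the list, whose GC content was higher. It was in 13 of the 25 strongest members. TATAAA shares were not computed for the strong summits of other sets, whose GC content was also low. The larger share in strong members is therefore not shown to be particular to them. GATAAG was in 9.97% of member windows, against 11.6% at coding starts and 10.9% of all, and GAGAGAG, the GAGA factor repeat, in 3.65%, against 5.17% and 3.26%. AAAAAAA was in 23.5%, against 22.9% and 25.5%, ACACACAC in 2.95%, against 4.38% and 4.03%, the E-box CACGTG in 1.83%, against 2.21% and 1.94%, and CAGGTAG, the Zelda site of early embryos, in 1.12%, against 0.677% and 0.767%. A match is a string of letters in these windows and does not show that a factor was bound.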

How the data were processed

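ChIP-seq peaks of CG7839-eGFP in 3 replicates of 1 group were used as deposited, on the dm6 assembly. The authors called each replicate's list from its own alignments and the pooled list from all 3, each against 1 common control, and derived the IDR list from these, per the text files deposited with them. The sources used here give neither the caller nor its thresholds nor the read depth. The signal value of each deposited peak ranked it within its list. The deposited −log10 q-values were not used to rank. The other deposited values used are interval bounds and summit offsets, and 6 pooled offsets past the interval's end were set to that end.

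Transcript starts came from Ensembl release 115 and sequence from RefSeq. A member was matched in a replicate where a summit lay within 100 bp. Shares have 95% Wilson intervals, which cover counting error only, and a count of 0 was given the limit of 3 counts. Replicates were compared by an exact sign-flip permutation test, adjusted by Benjamini-Hochberg over 5 comparisons. The member rule and the matching were checked on planted summits, but the permutation test was not. The labels give biological replicate numbers. Where all 3 signs agree, the exact permutation test gives p = 0.25 whatever the spread, so its p-values do not measure the spread between these samples. Motifs were sought on both strands in 201 bp around summits, and in the 101 bp printed.

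Members and lists were chosen with earlier results of these data known. Genes were named by rule: those at the 25 strongest members, genes with a proper name, those with the most members, the 3 members nearest to and farthest from coding starts, members on arm 4, and antisense genes, of which the stronger are named and the rest counted. Genes shown at the edge of the IDR list, in 1 replicate only or as microRNA precursors were chosen after their values were seen. Python 3.11.15, numpy 2.4.6, pandas 2.3.3, scipy 1.17.1 and matplotlib 3.10.9 were used.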

Additional observations from a re-analysis of the deposited data

How the results depend on the processing

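Of 58 alternative values under 11 settings, 48 were called the same as the reported result and 10 moved. For a difference between sets this asked only that its sign stay the same, whatever its size. For the number of members a wide range was allowed, and shares and medians had to stay within the interval or SD of the reported value. A window of 250 bp gave 410 members, 59.8% of them upstream, at a median percentile of 49.97. A window of 1000 bp gave 1171 members, 49.5% upstream, which ends the upstream lean. Matching within 50 bp put 27.0% of members in all 3 replicates and within 250 bp 54.4%, and leaving out 1 replicate put 45.6% to 51.3% in both others, since fewer lists must then match. RefSeq transcript starts and offsets as deposited each gave 712 members, and requiring the nearest start to be the non-coding one gave 710. Every value from RefSeq starts was identical to the reported one, so that setting gave no separate check on the values called the same. Deposited offsets differ for only 6 pooled summits, so that setting could change little. The member minus coding-start difference in matches anywhere ranged from -11.4 to -4.87 when each replicate was left out. With 3 replicates no exact test can pass, and read depth, which limits how many weak summits are found, is unknown. Summit sets were compared within each replicate. Across groups of samples no paired analysis was possible because there is only 1 group.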
